A study of Mus musculus with 12 samples.

Results

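The effect of losing Ddx55, averaged over times of stimulation, was measured in naive CD4+ T cells of the mouse. It was taken as the mean over 0, 8 and 24 h of the difference between knockout (KO) and wild-type (WT) cells. Such a mean can hold effects that differ in size between times. All 12 of the 12 RNA sequencing libraries of the series entered, 6 KO against 6 WT, with time as a term in the model. The groups were Ddx55-KO cells at 0, 8 and 24 h and WT cells at the same 3 times, with 2 libraries in each of the 6 groups. The cells came from spleen and pLN (as the labels abbreviate it). They were purified as CD4+ naive T cells and stimulated with plate-bound anti-CD3 at 5 ug/ml plus anti-CD28 at 2.5 ug/ml, which engage the T cell receptor complex and its main costimulatory receptor, for 0, 8 or 24 h. The labels do not give the allele, the part of the gene removed, the driver of any Cre, the age of the mice, or whether both libraries of each group stem from different mice, so p-values measure only the spread between these libraries. The stranded libraries were made after removal of ribosomal RNA and sequenced as pairs of 150 bases.

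Of 54232 genes in the count table, 15679 had enough reads to be tested, and the totals per library lay between 16810375 and 19126498 counts. Levels are CPM, the counts scaled to library size with TMM factors, which correct for the make-up of each library, and effects are log2 fold changes of KO over WT ± SE from 1 edgeR quasi-likelihood model of all 12 libraries. A gene was called when its two-sided p, adjusted over all tested genes by the method of Benjamini and Hochberg, was under 0.05. T cell identity genes, among them the CD3 chains and Cd4, summed to between 8242 and 11026 CPM in KO libraries and between 6741 and 11399 CPM in WT libraries, so the markers of the labelled cell type were present in both genotypes. The 3 libraries of 1 genotype and number moved together across times: the correlation of their deviations from the group means was 0.50, 0.16 and 0.30 between pairs of times in KO and 0.28, 0.15 and 0.27 in WT. The 6 libraries of a genotype are therefore not 6 unrelated samples. Sums over the 3 times, 2 KO against 2 WT, called 1384 of the 15679 tested genes higher and 1759 lower. Among them were 576 of the 650 higher and 150 of the 180 lower genes described below. Those genes were chosen on the same counts, so this is a description and no test.

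Ddx55 belongs to the DEAD-box family, proteins that use ATP to open or remodel RNA, and in human cells it is a nucleolar protein with a part in the maturation of the large ribosomal subunit. The transcription factor p53 is held low by Mdm2 and turns on genes for cell cycle arrest, DNA repair and apoptosis when DNA damage, disturbed ribosome assembly or other stress frees it. Interferon-stimulated genes answer type I interferon or the sensing of nucleic acids.

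Ddx55 itself was lower in every KO library. It stood at 19.5 and 19 CPM in KO cells at 0 h, at 18.0 and 17.1 CPM at 8 h and at 14.7 and 14.4 CPM at 24 h. The WT libraries held 45.3 and 51.2 CPM at 0 h, 68.7 and 64.1 CPM at 8 h and 52.9 and 55.2 CPM at 24 h. The highest KO library lay below the lowest WT library. The averaged log2 fold change was -1.71 ± 0.06 (adjusted p = 2.9e-10), or 39.9%, 26.4% and 27.0% of the WT level at 0, 8 and 24 h. Reads of the gene (GRCm38 chr5:124552864-124569660, + strand) thus remained in KO cells, and where in the transcript they lie was not analysed here.

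Averaged over the 3 times, 1925 genes were higher and 2194 lower in KO, together 26.3% of those tested (12.3% higher, 14% lower). Most of these did not meet the rule for a shared effect. Among the higher genes, 591 had differing signs between times and 684 (4.36% of tested genes) had 1 sign but were not called in the mean of 0 and 8 h. Of these 684, 512 were called higher at 24 h. Among the lower genes, 943 had differing signs and 1071 (6.83%) had 1 sign without a call in the mean of 0 and 8 h, 932 of them called lower at 24 h. The remaining genes, here called shared, had 1 sign at 0, 8 and 24 h and were called both in the average and in the mean of 0 and 8 h. There were 650 shared genes higher in KO (4.15% of tested genes) and 180 lower (1.15%), together 5.29% of tested genes and 20.2% of all averaged calls. By single contrast, the mean of 0 and 8 h called 5.51% of tested genes higher and 1.46% lower, 0 h alone 4.63% and 1.07%, 8 h alone 1.9% and 0.746%, and 24 h alone 17.9% and 20.7%.

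The shared genes leaned to one side and the 2 sides differed in size. The shared higher genes had median log2 fold changes of 1.78, 1.49 and 1.63 at 0, 8 and 24 h, and 310 of 650 were at least 2-fold higher at every time. In 152 of the 650 the WT level was under 1 CPM in all 6 libraries, where few WT reads set the size of the fold change. The shared lower genes had medians of -0.42, -0.42 and -0.66, and 7 of 180 were at least 2-fold lower at every time. Over all tested genes the medians were -0.03, 0.00 and 0.02. Shared genes were selected on these same values, so these numbers describe them and test nothing. KO and WT libraries did not overlap at any time in 526 of the 650 and 135 of the 180, against 4.87% and 3.21% of all tested genes. At the weak end, 49 higher and 19 lower shared genes had a log2 fold change under 0.1 in size at 1 or more times, 32 and 10 of them at 24 h. Around the threshold on the mean of 0 and 8 h, Klrb1b and Gpr34 fell just inside (adjusted p just under 0.05) and Cemip2, Nxpe1-ps and Vwf just outside (adjusted p = 0.0502 to 0.0507).

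**Figure D1:**
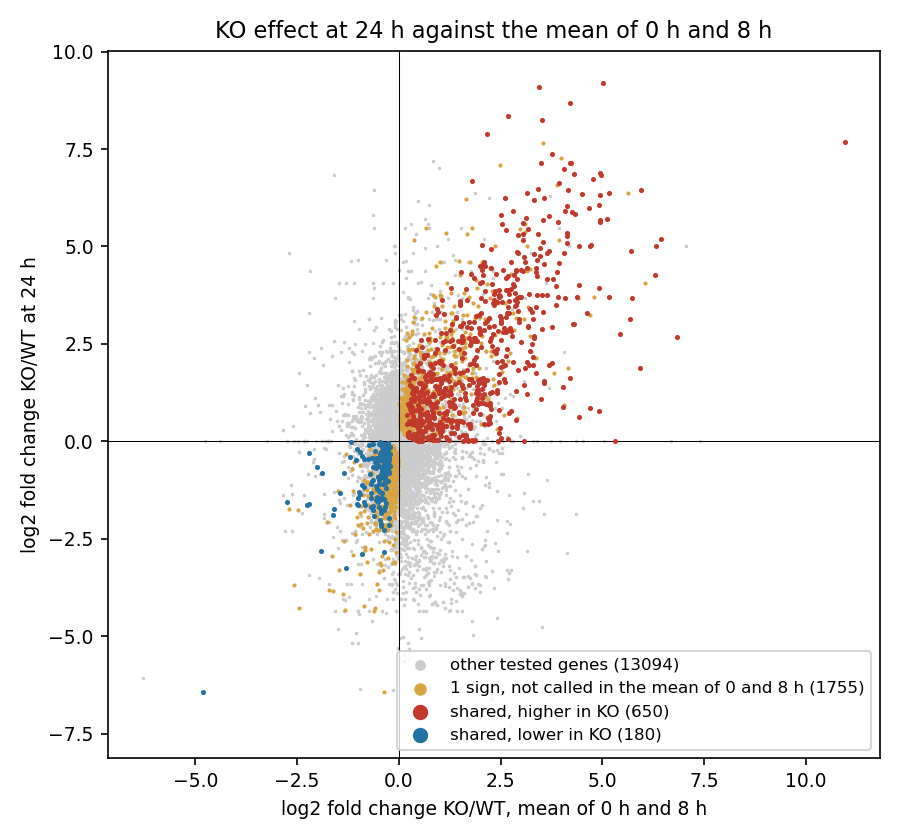
Log2 fold change of KO over WT at 24 h (vertical) against the mean of 0 and 8 h (horizontal) for all 15679 tested genes, each point 1 gene, with 650 shared higher genes in red, 180 shared lower genes in blue and genes called in the average with 1 sign but not called in the mean of 0 and 8 h in yellow. The red points reach far from the origin along both axes, while the blue points, apart from a few, stay close to it.

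Because the rule uses all times, the same question was put to libraries outside the model that chose the genes. Separate models of the 8 libraries of 0 and 8 h and of the 4 libraries of 24 h share no library. They are not independent, since libraries of 1 genotype and number moved together across times. The tested genes had also been filtered on all 12 libraries. A sign or call kept between times is therefore no independent repeat. The first called 4.85% of tested genes higher and 0.969% lower. Of 740 genes called higher there with 1 sign at 0 and 8 h, 78.6% had the same sign at 24 h and 56.9% were called higher there, against 20.5% of all tested genes, while 14.5% were called lower at 24 h. Of 151 genes called lower at 0 and 8 h, 80.1% kept the sign and 60.9% were called lower at 24 h, against 24.3% of all tested genes, and 4.64% were called higher. A model of the 0 h libraries alone called 3.18% of tested genes higher. Of these 498 genes, 87.8% had the same sign at 8 h and 26.1% were called there (2.03% of all tested genes). At 24 h 66.3% of the 498 had the same sign, 45.4% were called higher and 25.1% lower. Of 318 genes called higher in the 8 h libraries alone, 90.3% had the same sign at 0 h and 40.9% were called there, and 95.6% had the same sign at 24 h with 82.4% called higher. On the lower side single times held few genes. Of 47 genes called lower at 0 h (0.3% of tested genes), 70.2% had the same sign at 8 h and 4.26% were called lower there, while at 24 h 63.8% had the same sign, 42.6% were called lower and 14.9% higher. Of 59 genes called lower at 8 h (0.376%), 52.5% had the same sign at 0 h, with 3.39% called lower and 5.08% higher. At 24 h 98.3% of the 59 had the same sign, with 93.2% called lower. Over all tested genes 48.0%, 50.5% and 50.7% had a higher sign at 0, 8 and 24 h in these models. A lower sign was held by 51.8%, 49.2% and 48.8%. The 52.5% at 0 h is thus near the share of all tested genes.

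Of 34 tested p53 target genes, 22 were shared higher and 1 shared lower, against 4.15% and 1.15% of all tested genes. The medians of the 34 were 0.30, 0.98 and 1.57 at 0, 8 and 24 h, and 18 of the 23 shared members had their largest effect at 24 h. KO and WT libraries did not overlap at any time in 20 of the 23, against 526 of all 650 shared higher genes. Leaving out any 1 library left between 21 and 23 higher, and a model with an estimated correlation within genotype and number called 20. The count was 10 without the 8 h libraries, where the rule for shared genes asked for a call at 0 h alone.

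Cdkn1a encodes p21, the inhibitor of cyclin-dependent kinases through which p53 arrests the cell cycle. It stood at 8.87 and 12.1 CPM in KO cells at 0 h, 474 and 399 CPM at 8 h and 1220.1 and 1061 CPM at 24 h, against 1.71 and 0.241, 88.0 and 97.8, and 56.7 and 87.6 CPM in WT cells at the same times. The lowest KO library was above the highest WT library at each time, and the averaged log2 fold change was 3.21 ± 0.23 (adjusted p = 3.5e-05). The stimulated WT libraries also held more Cdkn1a than the resting ones.

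Psrc1, a p53-induced gene for a microtubule-binding protein, had the smallest adjusted p of the p53 targets. It stood at 20.8 and 22.3 CPM in KO cells at 0 h, 151 and 139 CPM at 8 h and 517 and 500.3 CPM at 24 h, against 0.709 and 0.963, 21.2 and 26, and 31.7 and 43.5 CPM in WT cells. That is a log2 fold change of 4.68 at 0 h, 2.62 at 8 h and 3.76 at 24 h, and 3.69 ± 0.10 on average (adjusted p = 2.1e-11). Phlda3, which encodes a repressor of the kinase Akt, had the same form, with log2 fold changes of 4.55, 2.03 and 3.15. Its KO libraries held 13.5 and 13.4 CPM at 0 h against 0.295 and 0.843 CPM in WT. In resting cells the KO libraries of Psrc1, Phlda3 and Cdkn1a thus held at least 8.87 CPM and the WT libraries at most 1.71 CPM.

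Several p53 targets of the apoptosis pathway were shared higher. Bbc3, which encodes the BH3-only killer protein Puma, stood at 89.6 and 71.5 CPM in KO cells at 0 h, 84.5 and 83.8 CPM at 8 h and 176 and 172 CPM at 24 h. In WT cells it stood at 30.0 and 35.1, 24.9 and 34.4, and 15.5 and 23.0 CPM. Bax, the pore-forming protein of the mitochondrial outer membrane, rose by 0.57, 0.63 and 1.40 on the log2 scale (average 0.87 ± 0.07, adjusted p = 5.4e-07). Pmaip1 (Noxa), Aen (an apoptosis-linked exonuclease) and the death receptor gene Fas were also shared higher. Of 22 tested pro-apoptotic genes, 7 were shared higher (4.15% of all tested genes), and 4 of these, Bbc3, Bax, Pmaip1 and Fas, are also counted among the p53 targets. The others were Apaf1, the apoptosome scaffold, and Casp1 and Casp4, caspases of inflammatory cell death. The median of the 22 was 0.29, 0.18 and -0.18, with the sign at 24 h opposite to that at 0 and 8 h. On the other side Bcl2 and Bcl2l2, which protect cells from apoptosis, were shared higher as well, Bcl2 with 0.65 ± 0.10 (adjusted p = 0.00070).

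Other p53 targets differed less in resting cells than at 8 and 24 h. Mdm2, the ubiquitin ligase that degrades p53 and is itself a p53 target, stood at 112 and 123 CPM in KO cells at 0 h, inside or close to the WT range of 116 and 108 CPM. At 24 h it stood at 275 and 249.9 CPM in KO cells against 102 and 109 CPM in WT cells, and its log2 fold changes ran 0.07, 0.66 and 1.32. Zmat3, a p53-induced RNA-binding protein, ran 0.67, 1.60 and 2.35, Ccng1 (cyclin G1) 0.43, 1.17 and 1.58, Polk, a DNA polymerase that copies past lesions, 0.24, 1.56 and 2.01, and Sesn2, a stress protein that restrains mTORC1, 0.82, 1.68 and 2.58. The shared lower member was Ddb2, a DNA damage sensor of nucleotide excision repair, with -0.39, -0.34 and -1.49. Mdm4, the second keeper of p53, was not shared: its KO libraries lay below the WT libraries at 0 h (407 and 501 against 556 and 573 CPM) and above them at 24 h (555 and 545 against 203 and 190.0 CPM). No gene of 14 tested DNA damage and p53 regulators was shared (5.29% of all tested genes were). In the average 2 were higher and 2 lower, against 12.3% and 14% of all tested genes.

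Promoters of p53 targets are shown because 9 of the 18 shared higher members with a promoter sequence held a p53 half-site (50%). Over all tested p53 targets with a promoter sequence it was 11 of 26 (42.3%). The share is thus mostly a trait of the list and no result about the KO effect. Among the promoters of 10454 tested genes 8.04% held a half-site, and among those of shared higher genes 8.89%. The windows run from 250 bases before to 50 after the start site, from RefSeq (GRCm38.p6), written along the gene's strand, with the matches on either strand in capitals. A match is a description of letters, not of binding, and Psrc1 and Phlda3 had no match in this window.
Cdkn1a (chr17:29090729-29091028, + strand): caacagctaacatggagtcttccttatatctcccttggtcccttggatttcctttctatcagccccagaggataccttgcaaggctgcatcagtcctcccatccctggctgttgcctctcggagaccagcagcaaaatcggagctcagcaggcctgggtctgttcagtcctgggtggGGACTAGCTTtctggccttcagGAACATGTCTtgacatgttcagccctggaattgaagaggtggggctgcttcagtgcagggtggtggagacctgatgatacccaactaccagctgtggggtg
Ccng1 (chr11:40755237-40755536, - strand): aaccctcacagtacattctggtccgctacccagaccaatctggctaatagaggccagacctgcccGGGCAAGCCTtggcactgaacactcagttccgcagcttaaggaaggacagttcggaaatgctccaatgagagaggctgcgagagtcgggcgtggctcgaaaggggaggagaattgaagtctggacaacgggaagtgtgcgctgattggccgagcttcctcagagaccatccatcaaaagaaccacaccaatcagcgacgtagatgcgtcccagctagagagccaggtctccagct
Aen (chr7:78895677-78895976, + strand): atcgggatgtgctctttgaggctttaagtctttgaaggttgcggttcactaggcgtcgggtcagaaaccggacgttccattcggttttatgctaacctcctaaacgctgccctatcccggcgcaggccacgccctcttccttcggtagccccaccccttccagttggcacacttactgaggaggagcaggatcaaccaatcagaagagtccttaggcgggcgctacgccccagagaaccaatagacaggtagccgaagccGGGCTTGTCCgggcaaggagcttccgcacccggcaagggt
Cdkn1a held 2 matches, and Ccng1 and Aen 1 each.

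A transcript of the miR-34a locus was higher in KO at each time. Gm37795 (ENSMUSG00000102813, GRCm38 chr4:150068539-150070997, + strand) is a gene model of unproven status that the naming rule skipped, and it is named here after its values were seen. Its start overlaps the last 17 bases of the hairpin of Mir34a (chr4:150068454-150068555, + strand), a microRNA gene that p53 is known to activate. It held 27 and 34 reads in KO cells at 0 h, 480 and 517 at 8 h and 1616 and 1485 at 24 h, against 2 and 1, 35 and 40, and 65 and 88 reads in WT cells. The averaged log2 fold change was 4.03 ± 0.14 (adjusted p = 2.9e-10), with 4.06, 3.70 and 4.34 at the 3 times and no call for a change over time (adjusted p = 0.15). Mir34a itself was not among the tested genes, and mature microRNAs are too short for these libraries, so the level of miR-34a was not measured. The mature forms of the locus (RefSeq, GRCm38.p6) have the seed, bases 2 to 8, in capitals.
mmu-miR-34a-5p: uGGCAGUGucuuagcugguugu
mmu-miR-34a-3p: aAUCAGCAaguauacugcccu

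**Figure D2:**
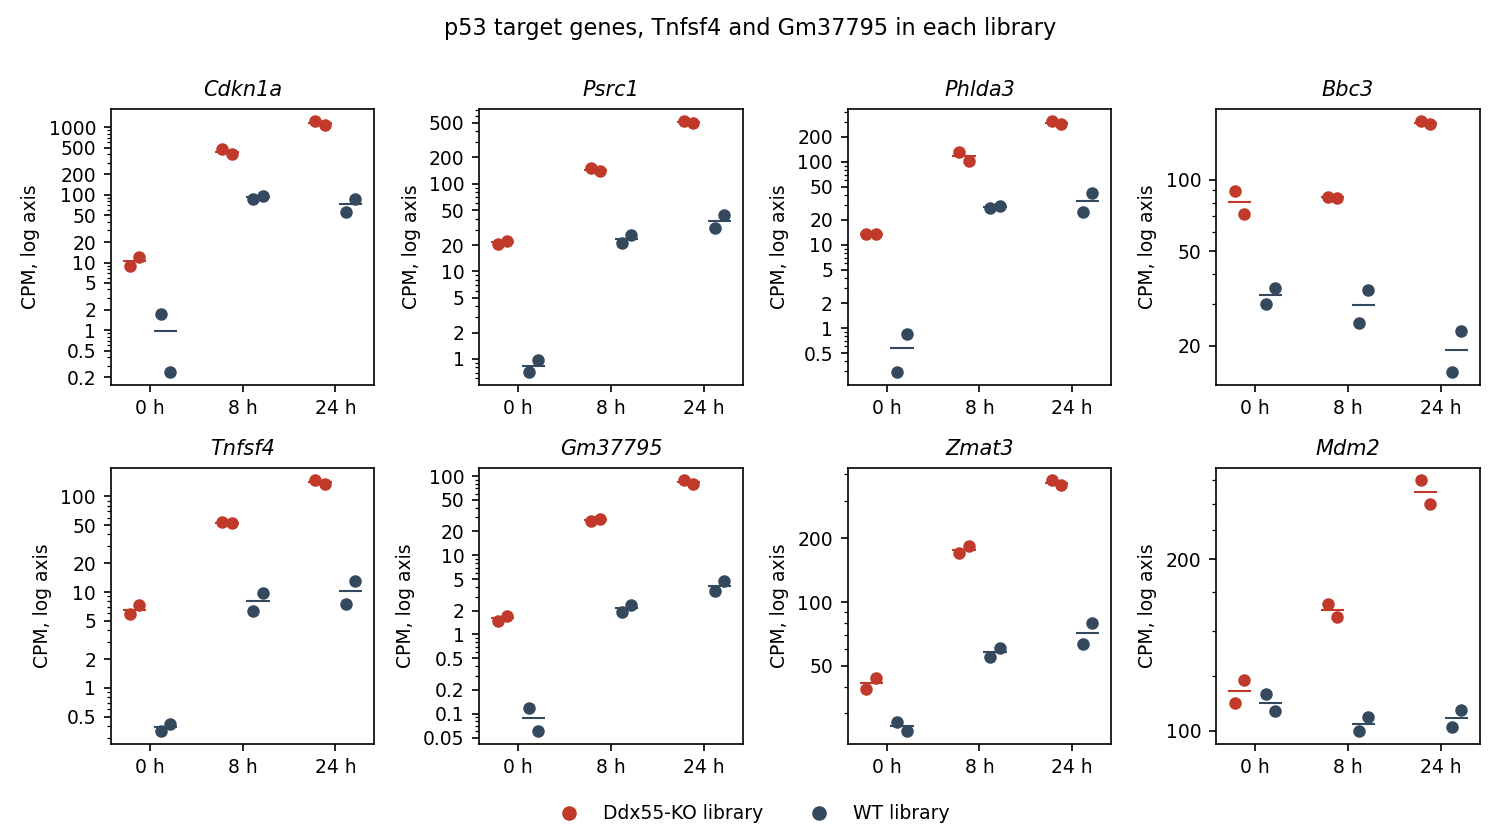
CPM (log axis) in each library at 0, 8 and 24 h for 6 p53 target genes, Tnfsf4 and Gm37795, with KO libraries in red to the left of WT libraries in dark blue and a short line at each mean of 2. KO libraries lie above WT libraries at every time in each panel except Mdm2, where they overlap at 0 h.

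The TNF family ligands Tnfsf4 and Tnfsf8 were shared higher. Tnfsf4 encodes OX40 ligand, better known from antigen-presenting cells. It stood at 5.89 and 7.27 CPM in KO cells at 0 h, 54.2 and 52.2 CPM at 8 h and 146 and 133 CPM at 24 h, against 0.354 and 0.421, 6.40 and 9.73, and 7.54 and 13.2 CPM in WT cells. Its averaged log2 fold change was 3.51 ± 0.17 (adjusted p = 1.8e-07). Tnfsf8, which encodes CD30 ligand, stood at 110.1 and 125, 821 and 743, and 709.6 and 641 CPM in KO cells, against 66.2 and 68.4, 379.7 and 413, and 105 and 115 CPM in WT cells. The groups did not overlap at any time for either ligand. Of 28 tested cytokine, chemokine and TNF ligand genes, 11 were shared higher and 0 lower, against 4.15% and 1.15% of all tested genes, and the medians were 0.87, 1.01 and 1.08. They included Ifng, the cytokine of T helper 1 cells (2.21, 2.42 and 3.54), the chemokine genes Ccl3, Ccl4, Ccl5 and Ccl9, Lif, Penk, Tnfsf14 and Tgfb1. Ccl4 stood at 4.79 and 2.71 CPM in KO cells at 0 h against 0.413 and 0.421 CPM in WT cells, and its log2 fold change was 3.13, 1.03 and 0.44 at the 3 times. Il2, the main growth factor of newly stimulated T cells, differed by 0.01, -0.02 and -0.09 and was not called. The count of 11 was 8 with an estimated correlation. It was 5 without the 8 h libraries, where the rule asked for a call at 0 h alone.

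Of 67 tested interferon-stimulated genes, 26 were shared higher and 0 lower, against 4.15% and 1.15% of all tested genes, and 15 of the 26 had their largest effect at 0 h. At 0 h 66 of the 67 had a KO mean over the WT mean, at 8 h 61 and at 24 h 44. The medians were 0.59, 0.51 and 0.22. KO and WT libraries did not overlap at any time in 20 of the 26, a share close to that of all shared higher genes (526 of 650).

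Oas1a makes 2'-5' oligoadenylate, the messenger that switches on RNase L when double-stranded RNA is sensed. It stood at 37.6 and 38.9 CPM in KO cells at 0 h, 5.31 and 3.64 CPM at 8 h and 1.69 and 3.45 CPM at 24 h, against 14.2 and 19.8, 1.93 and 1.41, and 1.13 and 0.812 CPM in WT cells. The log2 fold changes of 1.17, 1.41 and 1.40 gave it a place among the steady genes described further on. Isg15, a ubiquitin-like modifier, stood at 65.7 and 75.0 CPM in KO cells at 0 h against 18.8 and 33.3 CPM in WT cells, and at 7.35 and 5.34 CPM in KO cells at 24 h against 4.09 and 3.57 CPM in WT cells. Ifi44 had 1.74 ± 0.20 (adjusted p = 1.7e-05). Zbp1, a sensor of Z-form nucleic acids, had 0.64 ± 0.07, with 254 and 285 CPM in KO cells at 0 h against 138 and 178 CPM in WT cells.

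Members with other roles in the pathway were shared as well. Among sensors of double-stranded RNA these were Ifih1 and Dhx58, among the signalling proteins Stat2, and among transcription factors Irf7. Irf7, which drives interferon gene expression, had 0.90 ± 0.16 (adjusted p = 0.0029) with adjusted p = 0.16 without the 3 KO libraries numbered 2 and 0.062 without those numbered 1. Antiviral effectors included Mx1, Ifit3, Oas2, Oasl1, Oasl2, Bst2, Ifitm1 and Ifitm3. Irf9, the DNA-binding partner of Stat2, was called in the average but not in the mean of 0 and 8 h, with 0.06, 0.33 and 0.75. Several members that were higher at 0 h were on the other side at 24 h, among them Mx2 with 1.90, 1.21 and -0.43. Of 12 tested genes of the IFI200 family of DNA sensors 0 were shared, which at a share of 5.29% over all tested genes is no result about so short a list, and the medians were 0.28, 0.38 and -0.04. Leaving out 1 library moved the count of 26 to between 16, when WT 8 h replicate 2 was left out, and 31, for WT 0 h replicate 2, with 17 for WT 8 h replicate 1. It was 20 with an estimated correlation. Without the 0 h libraries, where the rule asked for a call at 8 h alone, it was 15. Without the 8 h libraries, with a call at 0 h alone asked for, it was also 15.

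Promoters of interferon-stimulated genes are shown because 11 of the 18 shared higher members with a promoter sequence held the interferon-response element (61.1%). The element is GAAA and again GAAA with 2 bases of any kind between them, on either strand. Over all tested interferon-stimulated genes with a promoter sequence it was 25 of 51 (49.0%). This share too is mostly a trait of the list and no result about the KO effect. Among the promoters of all tested genes 3.86% held the element, of shared higher genes 7.88% and of shared lower genes 0.758%. The capitals mark overlapping matches, and the window and source are those given for the p53 targets. Irf7 had no match in its window.
Oas1a (chr5:120907476-120907775, - strand): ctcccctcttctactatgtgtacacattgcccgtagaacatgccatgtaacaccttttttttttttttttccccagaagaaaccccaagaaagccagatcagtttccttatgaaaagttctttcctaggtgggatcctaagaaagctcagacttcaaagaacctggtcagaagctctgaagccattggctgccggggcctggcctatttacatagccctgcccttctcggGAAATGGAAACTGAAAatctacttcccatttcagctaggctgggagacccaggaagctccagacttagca
Isg15 (chr4:156200769-156201068, - strand): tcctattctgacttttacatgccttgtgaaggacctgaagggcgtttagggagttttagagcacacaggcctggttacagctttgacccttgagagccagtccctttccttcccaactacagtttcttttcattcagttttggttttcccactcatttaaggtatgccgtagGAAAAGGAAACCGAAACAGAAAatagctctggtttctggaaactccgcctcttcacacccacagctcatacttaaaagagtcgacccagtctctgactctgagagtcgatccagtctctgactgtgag

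Of 21 tested genes of memory-like and effector T cells, 13 were shared higher and 0 lower, against 4.15% and 1.15% of all tested genes. None of the 13 overlapped between KO and WT libraries at any time, against 526 without overlap among the 650 shared higher genes and 4.87% of all tested genes. The medians of the 21 were 1.26, 0.95 and 1.47. Nkg7, a protein of cytotoxic granules, stood at 51.9 and 30.2, 21.3 and 14.1, and 52.6 and 45.7 CPM in KO cells, against 7.44 and 7.22, 3.75 and 3.05, and 5.55 and 8.28 CPM in WT cells at the 3 times. Il2rb, the beta chain of the IL-2 and IL-15 receptor, stood at 102 and 88.9 CPM in KO cells at 0 h against 46.5 and 45.3 CPM in WT cells, and its log2 fold changes were 1.06, 0.58 and 0.32. Tbx21, the T helper 1 factor T-bet, had 1.41, 1.14 and 0.22. Cd44, the adhesion receptor that marks antigen-experienced T cells, had 0.43, 0.38 and 1.37. Cxcr3, Ccr2, Ly6c2, Klrg1, Anxa1, Anxa2, Lgals1 and Ccl5 were also among them. Klrg1 held 12 and 5, 5 and 1, and 0 and 0 reads in WT libraries at 0, 8 and 24 h. It passed the filter through its KO reads, so with it the share against 4.15% is a description and no test.

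Markers of T and NK cells that a naive CD4+ gate should leave out moved in the same direction. The 12 genes of CD8 T and NK cells summed to 325 and 191, 125 and 85.9, and 349 and 214 CPM in KO cells at 0, 8 and 24 h, against 118 and 111, 44.3 and 38.8, and 51.3 and 43.2 CPM in WT cells. Shared higher among them were Nkg7, Klrk1, Prf1, Gzma, Gzmb and Ncr1, 6 of 12 against 4.15% of all tested genes, whereas Cd8a (1.04, 0.95 and -0.59) and Cd8b1 (0.28, 0.03 and -0.08) were not called. The count of 6 was 3 without WT 8 h replicate 1 and 3 with an estimated correlation. Of 8 tested genes of gamma delta and innate-like T cells, 5 were shared higher (again against 4.15%), namely Trdc, Tcrg-C1, Tcrg-C2, Cd163l1 and Zbtb16. Zbtb16 held 5 and 4, 2 and 4, and 3 and 0 reads in WT libraries at 0, 8 and 24 h. It passed the filter through its KO reads, so with it the share is a description and no test. Trdc, the constant region of the delta chain, stood at 43.0 and 34.2 CPM in KO cells at 0 h and 16.3 and 13.5 CPM at 24 h, against 14.8 and 13.7 and 1.94 and 1.68 CPM in WT cells. In bulk RNA more cells of a type and more RNA of that kind per cell cannot be told apart, and the part of these cells in the effector genes was not tested. Foxp3, the defining factor of regulatory T cells, was not called, and 4 of 10 markers of those cells were shared higher, against the same 4.15%.

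Ranked by the smallest of their 3 effects, under the rule for named genes, the first 12 shared higher genes were Mcpt8, Fcer1a, Ms4a2, Prss34, Ms4a3, Epx, Ctsg, Prg2, Alox5, Prtn3, Csf2rb and Cyp11a1, most of them known from granulocytes, mast cells and their progenitors. Shared higher were 14 of 15 tested markers of basophils and mast cells, 8 of 8 of eosinophils, 13 of 18 of neutrophils and granulocyte progenitors and 10 of 13 of blood stem and progenitor cells, against 4.15% of all tested genes. Together 43 of the 650 shared higher genes are on these 4 lists and 70 on any list of another cell. The 4 lists held 18, 10, 20 and 14 genes, and members with too few reads were not tested. Fcer1a held 15 and 4, 5 and 2, and 5 and 6 reads in WT libraries at 0, 8 and 24 h. Ms4a3 held 27 and 1, 1 and 1, and 5 and 1. Both passed the filter through their KO reads, so for such members the share against 4.15% is a description and no test. Mcpt8, the protease of basophil granules, stood at 66.6 and 205 CPM in KO cells at 0 h, 34 and 125 CPM at 8 h and 57.0 and 226 CPM at 24 h, against 6.50 and 1.87, 3.36 and 1.99, and 1.62 and 1.89 CPM in WT cells. Epx, the peroxidase of eosinophils, stood at 39.6 and 52.7, 5.98 and 5.80, and 6.75 and 31.2 CPM in KO cells, against 3.90 and 0.722, 0.551 and 0, and 0.485 and 0.162 CPM in WT cells. Kit, the receptor for stem cell factor on progenitors and mast cells, stood at 15.6 and 21.3, 12.4 and 18.4, and 6.70 and 10.6 CPM in KO cells, against 4.78 and 5.12, 3.31 and 2.7, and 0.539 and 0.866 CPM in WT cells.

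The KO libraries numbered 1 and 2 differed in these genes. The basophil and mast cell markers summed to 348 and 877, 152 and 463, and 218 and 766 CPM in the KO libraries, with number 2 over number 1 at each time, against 54.2 and 32.8, 21.0 and 16.2, and 14.3 and 13.8 CPM in WT. The median difference of number 2 over number 1 in KO was 1.68 on the log2 scale for these markers, against -0.03 for p53 targets, 0.17 for interferon-stimulated genes, -0.23 for memory-like genes and -0.58 for CD8 T and NK cell markers. KO stood over WT in both numbers. A model without the KO libraries of 1 number has 1 KO library per group, so this difference no longer enters the spread. Such a model cannot show whether a call holds against it. The count of shared basophil and mast cell markers was 14 with all 12 libraries. It was 1 with an estimated correlation, and between 2 and 15 leaving out 1 library: leaving out WT 0 h replicate 2 or either of the WT 8 h libraries gave 2, WT 0 h replicate 1 gave 5, KO 8 h replicate 2 gave 6, and KO 0 h replicate 2 or either of the WT 24 h libraries gave 7. Without the 0 h libraries, where the rule asked for a call at 8 h alone, it was 2. Without the 8 h libraries, with a call at 0 h alone asked for, it was 3. Mcpt8, with an averaged log2 fold change of 5.41 ± 0.74 (adjusted p = 0.0026), had adjusted p = 0.12 in the sums over times. The count of 13 neutrophil markers was 6 when WT 8 h replicate 2 was left out, 7 for WT 8 h replicate 1 and 8 for KO 0 h replicate 1 or KO 8 h replicate 2. It was 8 without the 8 h libraries and with an estimated correlation, and 3 without the 0 h libraries. The count of 8 eosinophil markers was 2 without the 0 h libraries. The part of such cells in the other shared genes was not tested. The values of 67 of the 650 shared higher genes differed by 1 or more (log2) between KO numbers, number 2 over 1, and those of 448 by less than 0.5 in either direction.

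**Figure D3:**
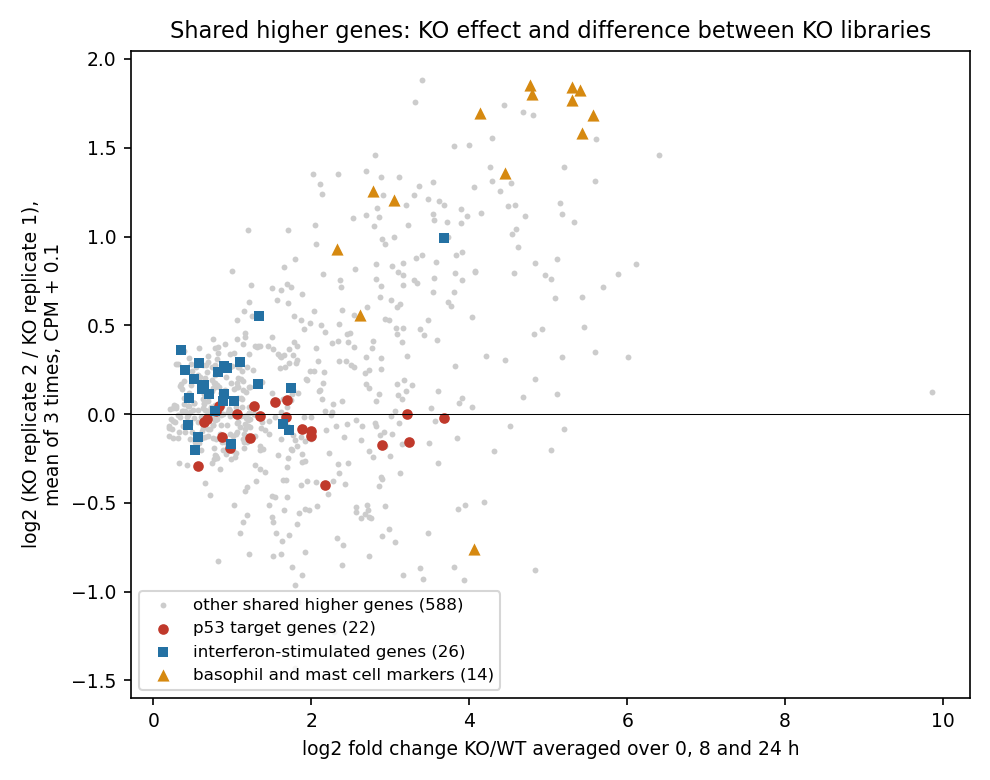
Difference between the KO libraries numbered 2 and 1 (log2 of their CPM ratio, mean of 3 times, vertical) against the averaged log2 fold change of KO over WT (horizontal), each point 1 of the 650 shared higher genes. Basophil and mast cell markers (orange triangles) lie mostly high on the right, p53 targets (red) and interferon-stimulated genes (blue) mostly near 0, and the lone point at the far right is Gm33707 with 9.86.

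A smaller set had close to the same effect at each time. Steady genes, with 3 log2 fold changes within 0.5 of each other and a mean of at least 0.58 in size, numbered 49 of the 650 higher and 7 of the 180 lower shared genes. Adgrg1, the adhesion receptor GPR56 of cytotoxic lymphocytes and of blood progenitors, had 2.96, 2.96 and 3.13. It stood at 24.7 and 36.8, 10.6 and 22.5, and 17.1 and 30.9 CPM in KO cells, against 4.19 and 3.67, 2.48 and 1.76, and 3.23 and 2.22 CPM in WT cells, and the KO libraries numbered 2 were again the higher ones. Nkg7 and Oas1a belong here too. Ube2l6, which conjugates Isg15 to its targets, had 1.12, 1.39 and 1.29, the membrane protease St14 1.18, 1.37 and 1.23, and the sugar transporter gene Slc2a6 1.58, 1.59 and 1.38. Casp1 and Casp4 were steady as well, with averages of 1.21 ± 0.15 and 1.15 ± 0.14. St14 stood higher at 24 h than at 0 h in both genotypes, at 34 and 38.4 CPM in KO cells and 12.9 and 18.0 CPM in WT cells, so a steady ratio does not mean a steady level.

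**Figure D4:**
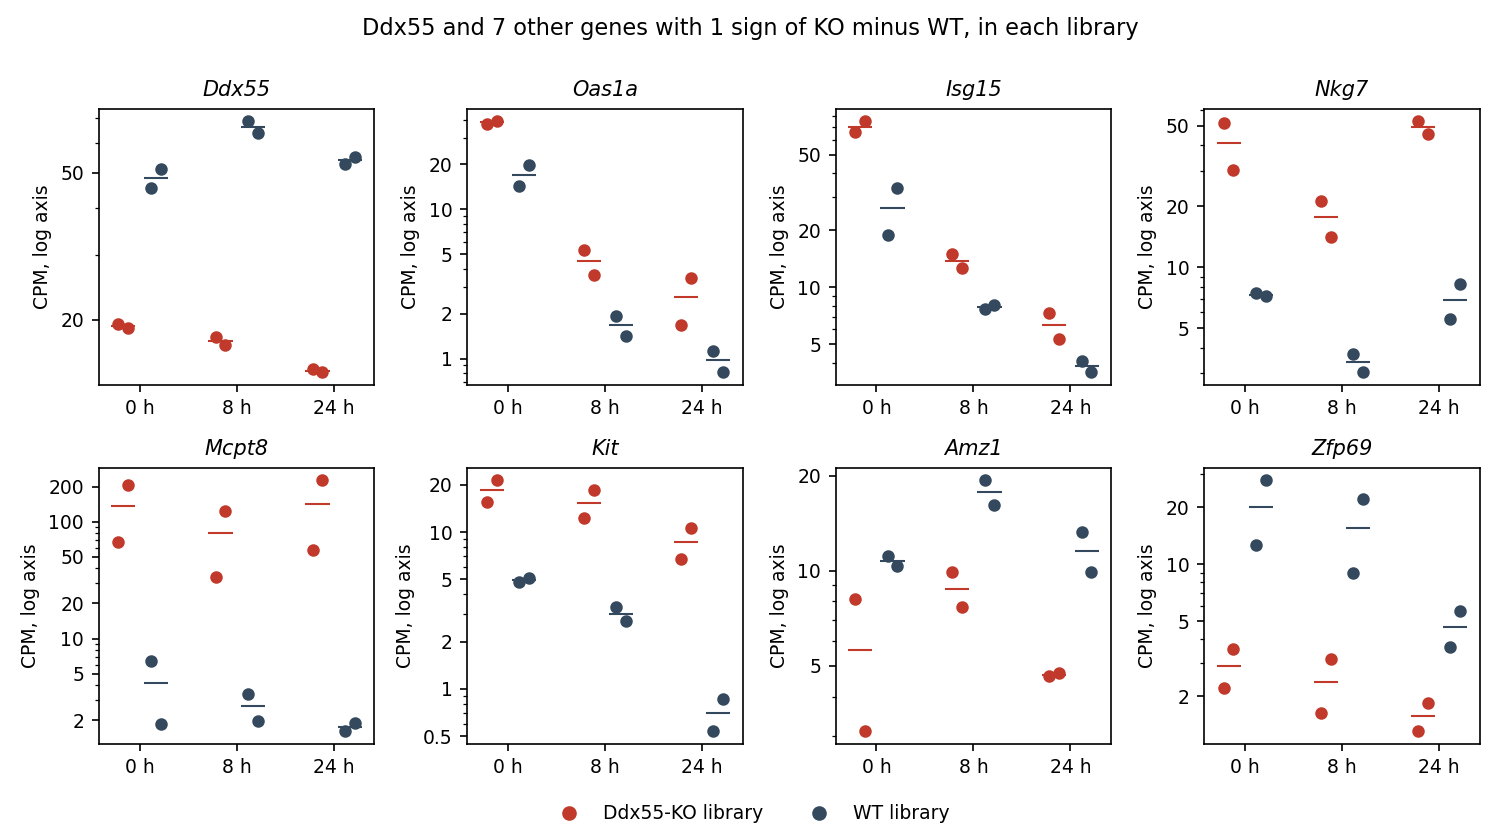
CPM (log axis) in each library at 0, 8 and 24 h for Ddx55 and 7 other shared genes, with KO libraries in red to the left of WT libraries in dark blue and a short line at each mean of 2. KO and WT do not overlap at any time in these panels, and the 2 KO libraries stand apart for Mcpt8, as do the 2 WT libraries for Zfp69.

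By the rule for named genes, the shared lower genes described were Zfp69, Ddx55, Amz1, F2rl1, Tspan9, Lypd6b, Epop, Tbc1d16, Ptk2, Psen2, Rpl22l1 and Sidt1. Zfp69, a zinc finger gene of the KRAB class, came first by this rule. It stood at 2.20 and 3.56, 1.64 and 3.15, and 1.31 and 1.83 CPM in KO cells, against 12.6 and 27.7, 8.93 and 22.1, and 3.66 and 5.68 CPM in WT cells. Replicate 2 was over replicate 1 at each time in both genotypes, and its averaged -2.35 ± 0.36 (adjusted p = 0.0018) was not called without the KO libraries numbered 1 (adjusted p = 0.11), without those numbered 2 (0.079) or in the sums over times (0.082). F2rl1, the protease-activated receptor PAR2, stood at 35.5 and 47.9, 9.26 and 11.6, and 1.85 and 2.91 CPM in KO cells, against 78.0 and 79.8, 16.2 and 18.2, and 7.44 and 7.47 CPM in WT cells. Amz1, a metalloprotease gene, had -0.94, -1.01 and -1.30, and was not called without the 24 h libraries (adjusted p = 0.095).

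Psen2, a catalytic subunit of gamma-secretase, had -0.51, -0.58 and -0.57 (average -0.55 ± 0.07, adjusted p = 5.1e-05). It stood at 67.8 and 54.4 CPM in KO cells at 0 h against 85.2 and 89.4 CPM in WT cells. Rpl22l1, a paralogue of the ribosomal protein Rpl22 known to act in T cell development, had -0.58, -0.47 and -0.93. It was not among the 78 tested cytosolic ribosomal protein genes, of which 0 were shared in either direction (5.29% of all tested genes were). Epop, a partner of the Polycomb complex PRC2, had -0.69, -0.63 and -1.03. Sidt1, a lysosomal transmembrane protein of the SID-1 family, had -0.46, -0.79 and -1.67, and Pdk1, the kinase that limits entry of pyruvate into mitochondria, -0.41, -0.40 and -1.32. Sidt1, Pdk1, Tspan9, Lypd6b and Tbc1d16 stood lower at 8 and 24 h than at 0 h in all libraries of both genotypes.

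Cholesterol synthesis was the list with the most shared lower members. Of 24 tested genes, 6 were shared lower and 0 higher, against 1.15% and 4.15% of all tested genes. Another 13 were lower with 1 sign but not called in the mean of 0 and 8 h (6.83% of all tested genes) and 4 were lower in the average with differing signs, with medians of -0.12, -0.41 and -1.68. Among the 6 were Fdft1, Sqle, Hsd17b7 and Sc5d, enzymes of the pathway, and Srebf2, the transcription factor that drives it. Sqle stood at 14.3 and 12.1 CPM in KO cells at 0 h against 12.9 and 16.0 CPM in WT cells, and at 39.9 and 36.1 CPM in KO cells at 24 h against 140.1 and 119.9 CPM in WT cells. The groups overlapped at 0 h and stood far apart at 24 h, and the change over time was called (adjusted p = 2.2e-05). Leaving out 1 library moved the count of 6 to between 1 and 8. It was 1 when WT 0 h replicate 2 or either of the WT 8 h libraries was left out, 2 for KO 8 h replicate 1 and 3 for KO 0 h replicate 2. It was 3 without the 24 h libraries, 3 with an estimated correlation and 0 without the 8 h libraries. Without 24 h the rule asked for no call beyond the average, and without 8 h for a call at 0 h alone.

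At the far end were transcripts read almost only in KO cells. Of all tested genes, 5 had no more than 0.5 CPM in all 6 WT libraries and at least 1 CPM in all 6 KO libraries, and 0 genes had the reverse. Gm33707, a processed pseudogene (GRCm38 chr3:60769887-60770455, - strand), held 525 and 506 reads in KO cells at 0 h, 100 and 147 at 8 h and 125 and 130 at 24 h. The WT libraries held no read at 0 and 8 h and 0 and 1 at 24 h. Against a floor of 3 counts over the 2 WT libraries its level was at least 302.5-fold higher in KO at 0 h and at least 80.9-fold at 8 h. Its annotated transcript is 89.5% identical over 573 aligned bases to Eno1 and Eno1b, which encode the glycolytic enzyme enolase 1, and 89.7% identical to the pseudogene Gm4735. The sources used here do not say how reads with several matches were counted, so its counts are uncertain. Eno1 itself did not follow it: it stood at 658 and 579 CPM in KO cells at 0 h against 558 and 570.4 CPM in WT cells, and at 385 and 397 CPM in KO cells at 24 h against 1183 and 1225 CPM in WT cells.

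The other genes of this kind had low levels. Ffar2, a receptor for short-chain fatty acids better known from granulocytes, stood at 1.27 and 2.71 CPM in KO cells at 0 h and 2.07 and 3.02 CPM at 24 h, against 0.177 and 0.12 and 0.108 and 0.162 CPM in WT cells. Ttc39c stood at 4.58 and 3.23 CPM in KO cells at 24 h against 0.162 and 0.162 CPM in WT cells. The remaining 2 were 4930519L02Rik, at least 50.2-fold higher in KO at 24 h against the same floor and with KO number 2 over number 1 at each time, and ENSMUSG00000084956, which has no name in the annotation used here.

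Other programmes were called in the average or at single times, with few or no shared genes. All 46 tested S phase genes had a change of the KO effect over time, against 22.4% of all tested genes, 43 of them lower in the average with differing signs, and only Rpa1, a single-strand DNA binding subunit, was shared lower. Mcm6, a subunit of the replicative helicase, stood at 99.9 and 107 CPM in KO cells at 0 h against 77.0 and 84.3 CPM in WT cells, and at 114 and 136 CPM in KO cells at 24 h against 787 and 767 CPM in WT cells. Hells, a chromatin remodeller of dividing cells, had 0.56, -0.67 and -3.88, so its averaged -1.33 ± 0.08 describes none of the 3 times. Ccne1 (cyclin E1) and Chaf1b (a histone chaperone of replication) likewise had signs that differed between times, with 0.15, -0.78 and -4.41 for Ccne1 and 0.04, -0.37 and -3.69 for Chaf1b, of which only the 24 h values were called. Among genes that had 1 sign but were not called in the mean of 0 and 8 h were Fbxo5 and Fanci on the lower side (-0.21, -0.07 and -3.11 for Fbxo5) and Slc4a11, Adgrg3 and Elane on the higher side. Slc4a11 and Adgrg3 were called at 24 h and at no other time. Elane, which encodes the elastase of neutrophil granules, was called at no single time. It stood at 71.3 and 49.6 CPM in KO cells at 0 h and 0.436 and 1.67 CPM at 24 h, against 7.74 and 1.14 CPM and 0 and 0 CPM in WT cells. On the higher side with differing signs stood Sox4, Slc19a2 and Cyp4f17, with -0.12, 0.83 and 3.36 for Sox4. Of 41 tested G2/M genes 0 were shared, against 5.29% of all tested genes. In the average 1 was higher and 7 lower, against 12.3% and 14%. Yet 34 of the 41 were called higher at 0 h, against 4.63% of all tested genes. All 41 were called lower at 24 h, against 20.7%, and all 41 had a change over time. Their medians were 1.96, 0.78 and -3.05 at 0, 8 and 24 h.

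Genes close to the known work of the protein were counted as well, beside shares over all tested genes of 5.29% shared and 14% lower in the average. Of 72 tested ribosome biogenesis factors, 0 were shared and 13 were lower in the average, a share near that of all tested genes. The medians were -0.03, -0.12 and -0.11. Of 50 tested other helicases of the DEAD-box and DEAH-box families, 1 was shared, the interferon-stimulated Dhx58. Of 20 T cell identity genes 0 were shared. Counts this small were not tested against that share and are no result about these genes, and they speak of RNA levels alone.

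**Figure D5:**
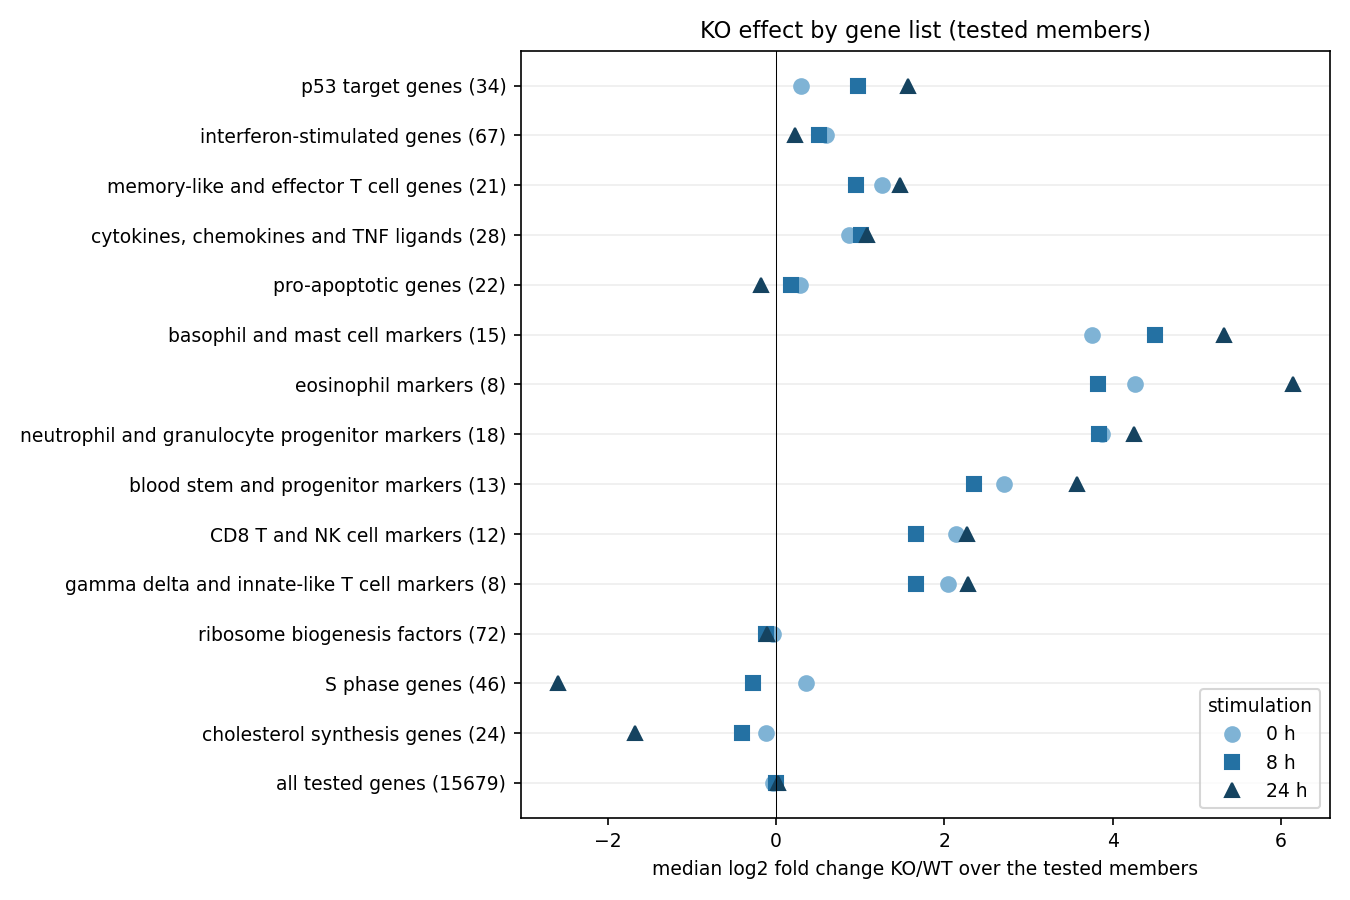
Median log2 fold change of KO over WT over the tested members of 14 gene lists and over all tested genes at 0, 8 and 24 h, with the number of tested members in brackets. The granulocyte and progenitor lists lie between 2.35 and 6.15, the p53 targets between 0.30 and 1.57 with the largest value at 24 h, and the interferon-stimulated genes between 0.22 and 0.59 with the largest at 0 h.

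Shared genes were spread over the genome, with between 3.33% and 6.64% of the tested genes of each chromosome. Within 5 Mb of Ddx55, 129 genes were tested, 4 were shared higher (Sdsl, Oas2, Trafd1 and Oas1a) and 2 lower (Snrnp35 and Clip1). Those 4 of 129 are 3.10%, against 4.15% of all tested genes, and Oas1a and Oas2 lie in this window. Sdsl, a relative of serine dehydratase, had 2.10, 4.91 and 8.24. It held 51 and 52, 13 and 25, and 22 and 55 reads in KO cells at 0, 8 and 24 h. The WT libraries held 11 and 10, 0 and 1, and 0 and 0 reads, so its values at 8 and 24 h are set by WT counts at or near 0. The sources used here do not say whether sequence of another strain flanks the allele, and its part in these genes was not tested. Clip1, a protein of growing microtubule ends, had -0.36, -0.30 and -0.55 (average -0.40 ± 0.06, adjusted p = 9.2e-05).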

How the data were processed

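RNA was measured in 12 libraries, 2 for each genotype and time. Per the submitters' processing notes, fastp 0.12.4 and STAR 2.7.1a were used with the mouse build mm10 (GRCm38), and the sources used here do not name the tool that counted reads per gene, its annotation or its use of strand, nor do they say whether duplicate reads were removed. The authors deposited raw counts per gene in 1 table, with 16810375 to 19126498 counts per library. A deposited table of repeat elements was not used here. Groups came from the sample labels.

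Genes were kept by edgeR's filter (minimum count 10, minimum total 15), scaled with TMM factors and fitted with edgeR 4.0.16 (R 4.3.3, limma 3.58.1) by the quasi-likelihood test, with 1 mean per group, 6 residual degrees of freedom and Benjamini-Hochberg adjustment over 15679 genes at 0.05. The contrasts were KO minus WT averaged over 3 times, at each time, over 0 and 8 h, and the change over time. A gene was called shared when it had 1 sign at all 3 times and was called in the average and in the mean of 0 and 8 h. The members and the 37 gene lists were chosen with earlier results of these data known. Genes were named by rule: for each direction the 12 shared genes with the largest minimum effect, a mean of at least 5 CPM and no overlap of libraries, leaving out predicted genes, then steady genes (up to 6), genes with reads in almost 1 genotype only, 3 each of genes with 1 sign not called in the mean of 0 and 8 h or with differing signs, and up to 3 per list by p; other shared list members could be named too. Symbols matched 54165 of 54232 identifiers.

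Alternatives were RLE size factors, DESeq2 1.42.0, other filters, a model of time and genotype without their interaction, a replicate block, counts summed over times, limma voom with an estimated correlation of 0.10 within genotype and number, a threshold of 0.01, and leaving out times or libraries. Leaving out all KO libraries of 1 number was added after seeing the data. It leaves 1 KO library per group, so the difference between KO libraries does not enter the spread. A call kept there says nothing about that difference. On simulated counts for the averaged contrast (15679 genes, 4 draws), 80.5% of genes changed 1.5-fold and 95.5% of genes changed 2-fold at all times were found as shared, against 13 of 59231 unchanged genes and 0 of 200 genes changed 2-fold at 24 h only. The changed genes had a WT mean of at least 5 CPM. Libraries were drawn without the correlation within genotype and number, and effects at 0 h or 8 h alone were not simulated. These shares therefore do not carry over to the real libraries or to genes of low level. Promoters, microRNAs and gene positions are from the reference annotation of GRCm38, and the pseudogene was aligned with BLAST+ 2.17.0. Figures were drawn with matplotlib 3.10.9. The number of libraries, 2 per group, limits the precision. Some list members are not reported here.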

Additional observations from a re-analysis of the deposited data

Results flagged for a closer look

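The KO effect differed between the 3 times in 3519 genes (edgeR's quasi-likelihood test, adjusted p of the change over time), 22.4% of those tested. The change was called in 172 of the 650 shared higher genes (26.5%) and 55 of the 180 shared lower genes (30.6%). It was called in 20 of the 23 shared p53 targets. A shared sign therefore does not mean an equal effect, and the adjusted p of that change is given here for the genes described above. For Ddx55 it was 0.01178, with the smaller difference at 0 h. Among p53 targets, other apoptosis genes and the p53 regulator Mdm4 it was 0.0001597 for Psrc1, 0.01419 for Phlda3, 0.04886 for Cdkn1a, 2.441e-05 for Mdm2, 1.255e-05 for Zmat3, 0.003275 for Ccng1, 0.002959 for Bax, 0.0006831 for Bbc3, 0.004144 for Aen, 0.001174 for Sesn2, 1.657e-06 for Fas, 1.979e-06 for Polk, 0.0003659 for Ddb2, 0.005671 for Apaf1 and 7.624e-06 for Mdm4. Among effector, ligand and other lymphocyte or progenitor genes it was 0.005126 for Il2rb, 0.0003505 for Cd44, 0.01327 for Tbx21, 7.493e-07 for Tnfsf8, 0.003233 for Ccl4, 0.002565 for Trdc, 0.009545 for Ccl3, 0.01089 for Tnfsf14, 0.003151 for Prf1, 0.03226 for Kit, 0.01902 for Sdsl and 0.01639 for Ttc39c. For the shared interferon-stimulated gene Bst2 it was 0.03118. Among lower genes it was 0.002745 for Tbc1d16, 9.547e-05 for Sidt1, 0.0001806 for Pdk1, 2.169e-05 for Sqle, 0.0009574 for Fdft1, 0.002196 for Hsd17b7, 4.593e-05 for Sc5d, 1.03e-07 for Rpa1 and 0.03159 for Srebf2. Among genes that are not shared it was 0.01677 for Irf9, 0.0003297 for Mx2, 6.158e-05 for Cyp4f17, 1.633e-06 for Sox4, 9.008e-07 for Slc19a2, 8.276e-07 for Fanci, 6.29e-08 for Fbxo5, 1.207e-08 for Ccne1, 5.633e-09 for Chaf1b, 1.881e-09 for Hells, 2.024e-05 for Eno1 and 7.174e-09 for Mcm6.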

How the results depend on the processing

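For 142 genes the averaged effect was recomputed under the alternatives. Those called in the average kept its sign in every alternative that tested them, and 3532 of 3688 gene and alternative pairs kept their side of the threshold. RLE factors, DESeq2 and other filters left each count of genes within 1.5 times. A model without interaction called 836 higher and 416 lower genes in the average and 73 shared lower genes. The voom model with a correlation called 118 shared lower genes. At a threshold of 0.01 there were 1199 higher and 1358 lower genes in the average and 387 and 51 shared. Shared higher genes numbered 419 without 0 h and 408 without 8 h, where shared lower genes numbered 86. Without 0 h the shared lower genes again numbered 180, but they were largely other genes. Of the 650 higher and 180 lower shared genes of all 12 libraries, 298 and 60 were kept without 0 h. Kept without 8 h were 369 and 60, and without 24 h 576 and 96. The rule for shared genes changed in these models, so their counts are not on 1 scale. Without 0 h the call in the mean of 0 and 8 h became a call at 8 h alone. Without 8 h it became a call at 0 h alone. Without 24 h it was the same as the call in the average and added nothing. Without 24 h the average called 790 higher and 127 lower genes. Shared lower genes numbered 433 without the KO libraries numbered 2 and 305 without those numbered 1. Leaving out 1 library gave 1503 to 1977 higher and 1602 to 2423 lower genes in the average, 432 to 660 shared higher, 77 to 240 shared lower, and 2261 to 4150 with a change over time. The lowest averaged and shared higher counts came when WT 8 h replicate 1 was left out, the lowest averaged lower and change counts with WT 24 h replicate 1 left out, and the lowest shared lower count with WT 8 h replicate 2 left out. Leaving out WT 0 h replicate 2 gave 78 shared lower genes, WT 8 h replicate 1 gave 82 and WT 24 h replicate 1 gave 112, while leaving out KO 24 h replicate 1 gave 2331 genes with a change over time. The cause was not tested. KO and WT libraries of the same number deviated together with correlations of 0.30, 0.40 and 0.05 at 0, 8 and 24 h. Since 1 of the 3 was not over 0.1, the numbers were not taken to pair KO with WT libraries. The other values lie within the range found between times of 1 genotype, 0.15 to 0.50. Between pairs that differed in both time and genotype the correlations ran from -0.27 (KO 0 h, WT 24 h) to 0.27 (KO 0 h, WT 8 h). Whether the numbers mark pairs is thus not settled by these values. With the replicate block there were 2079 higher and 2390 lower genes in the average, 742 and 224 shared, and 3979 with a change over time.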
